A study of Mus musculus with 2 samples.

Results

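Claudins are the proteins that decide how tight or leaky the seal between neighbouring tubule cells is, and 9 of them, together with the tight junction protein occludin, were followed here in mouse kidney. The 10 genes, Cldn1, Cldn2, Cldn3, Cldn4, Cldn7, Cldn8, Cldn10, Cldn16, Cldn19 and Ocln, were taken by symbol from a table of 20002 genes, and a row was found for 10 of 10. The study compared control mice with Reg-2 CKO mice in RNA sequencing of whole kidney, with 1 library in each group and therefore no replicate check of any difference. The C57BL/6J mice received AAV9 through the tail vein at 11 weeks of age, carrying shRNA against Regnase-2 in the Reg-2 CKO group. For the control group, the sequencing methods name control shRNA and the AAV9 methods name empty vectors. Kidneys were analysed at 14 weeks of age by the sequencing methods, whereas the AAV9 methods give harvest at 16 weeks. Although the labels name a conditional knockout in the proximal tubule, the methods describe a knockdown by a virus said to prefer proximal tubules, and no tubule-specific promoter was given. By the sequencing methods the RNA came from a left kidney, in the singular. A supplementary legend gives a number of mice per group for all quantitative data, without saying how many entered each library.

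The deposited values were whole numbers, the smallest being 35 in the control column and 51 in the CKO column. They were read as sequencing reads plus a constant, which is an inference from the values, and 34 and 50 were subtracted. The control library then held 38851231 reads and the CKO library 43588721. CKO reads were then scaled by 0.667, the median gene ratio of control to CKO, and differences are given as the log2 ratio of CKO to control with 1 read added to each. Intervals are 95% Clopper-Pearson intervals of the ratio with no read added. They cover counting error only and leave out spread between mice. They also treat reads as independent, which reads of amplified libraries are not, so they may be too narrow even for counting error. Zc3h12b, the gene of Regnase-2, had 47 control reads against 59 in the CKO library. Its log2 ratio of -0.25 had an interval from -0.83 to 0.33, so a difference in the targeted transcript was not detectable at this depth. Its ratio was 0.16 with equal library totals and 0.42 in the deposited values taken directly, settings that raise the all-gene median. Relative to that median, Zc3h12b lay between -0.28 and -0.14 under 8 settings. Because the interval of the target gene includes 0 and so does not check the label, the second group is called the library labelled CKO. The kidney label itself was matched by abundant markers: Umod of the thick ascending limb had 90047 control reads, Lrp2 of the proximal tubule 103389 and Podxl of podocytes 4782.

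Claudins span the membrane with a pair of loops that meet the loops of the neighbouring cell, and each type forms either a selective pore or a barrier for ions. The kidney tubule changes its set of claudins from segment to segment. Leaky cation pores serve bulk reabsorption in the proximal tubule, a pore for calcium and magnesium serves the thick ascending limb, and barrier claudins seal the collecting duct. Occludin is a membrane protein of the same junctions that belongs to another family.

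In the library labelled CKO, Cldn4, Cldn1, Cldn3 and Cldn7 were each at least 2-fold higher, and no member was at least 2-fold lower. Cldn2 and Cldn10, the most abundant claudins, had log2 ratios of -0.48 and -0.62, Cldn2 reaching 0.10 when the deposited values were used directly. Higher by the threshold were thus 4 of 10 members, or 40%, against 13.4% of the 17469 genes that had at least 10 scaled reads in 1 library. At least 2-fold lower were 0 of 10 members and 5.35% of all genes. With equal totals 21.9% of all genes were at least 2-fold higher and 2.47% lower, and in the unprocessed values 17.9% and 0.655%, beside which the counts of lists under these settings are to be read. All 10 members passed the same filter, and their median log2 ratio was 0.63 beside 0.02 for all genes. Among all genes past 2-fold, 71.4% were higher, and this share became 89.9% with library totals made equal and 96.5% when the deposited values were taken unprocessed. In whole kidney, fewer cells of a type and less RNA per cell cannot be told apart.

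**Figure D1:**
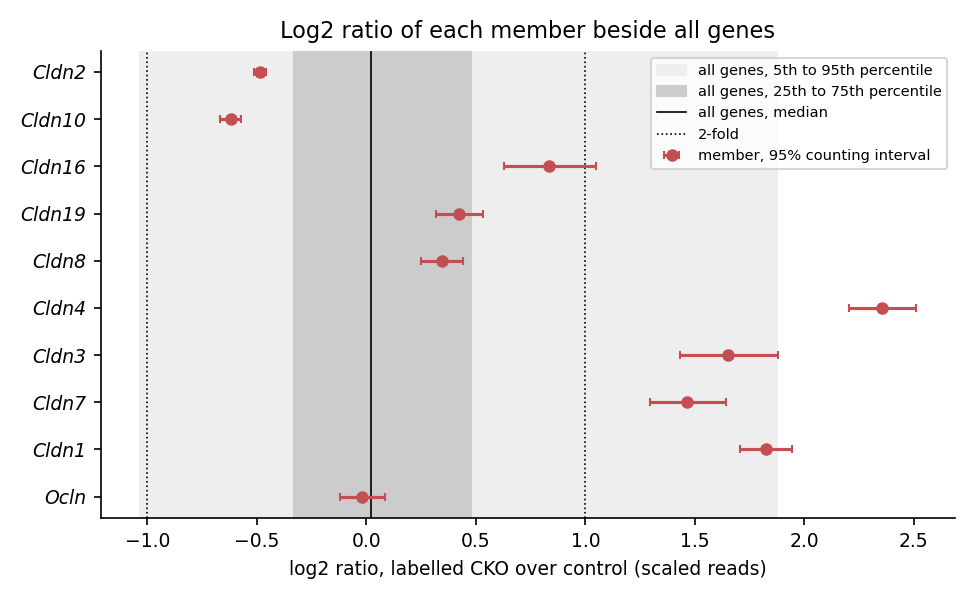
Log2 ratio of the library labelled CKO over control for each of the 10 members, with 95% Clopper-Pearson intervals for counting error as bars. Grey bands show the 5 to 95 and 25 to 75 percentiles of 17469 genes, and dotted lines mark 2-fold. Cldn4, at 2.35, lies beyond the band of all genes, and Cldn10 is the lowest member at -0.62.

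Upstream sequences are shown for these 4 genes because each was at least 2-fold higher. They are the 250 bases before the annotated start site, written on the strand of the gene, from RefSeq for build GRCm38.p6, in which 9 of the 10 members had an entry. Cldn8 had none. The windows are chr5:134946935-134947184 on the minus strand for Cldn4, chr5:134985964-134986213 on the plus strand for Cldn3, chr11:69964529-69964778 on the plus strand for Cldn7, and chr16:26371840-26372089 on the minus strand for Cldn1. Capitals mark matches on either strand to any of 5 motifs.
Cldn4: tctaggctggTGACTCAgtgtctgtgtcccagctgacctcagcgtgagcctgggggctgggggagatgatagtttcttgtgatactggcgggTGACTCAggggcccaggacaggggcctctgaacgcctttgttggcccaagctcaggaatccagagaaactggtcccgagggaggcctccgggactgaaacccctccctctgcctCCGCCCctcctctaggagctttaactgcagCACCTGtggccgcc
Cldn3: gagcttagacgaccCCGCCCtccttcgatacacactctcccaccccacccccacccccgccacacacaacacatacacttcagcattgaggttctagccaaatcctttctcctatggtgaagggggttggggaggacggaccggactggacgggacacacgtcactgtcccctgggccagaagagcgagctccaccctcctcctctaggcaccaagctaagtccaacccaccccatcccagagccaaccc
Cldn7: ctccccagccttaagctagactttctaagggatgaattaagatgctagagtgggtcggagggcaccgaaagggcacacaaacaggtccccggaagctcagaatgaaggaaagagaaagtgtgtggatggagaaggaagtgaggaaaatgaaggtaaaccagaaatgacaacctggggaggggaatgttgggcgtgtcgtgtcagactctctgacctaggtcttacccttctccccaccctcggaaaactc
Cldn1: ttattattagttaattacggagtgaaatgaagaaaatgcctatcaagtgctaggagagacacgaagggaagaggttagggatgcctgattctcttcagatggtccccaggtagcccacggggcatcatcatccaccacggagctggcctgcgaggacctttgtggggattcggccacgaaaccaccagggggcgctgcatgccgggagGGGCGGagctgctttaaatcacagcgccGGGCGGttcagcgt

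The letters searched were CAGGTG, an E-box that Snail and Zeb factors bind, AACCGGTT of grainyhead-like factors, TGANTCA of AP-1, TTCNNNGAA of STAT factors, and GGGCGG, the GC box of Sp factors. Of 32851 upstream windows of the same length, 17.2% held the E-box, 0.116% the grainyhead-like letters, 6.75% the AP-1 letters, 7.02% the STAT letters and 32.7% the GC box. The Cldn4 window held the AP-1 letters at 2 positions, starting 240 and 158 bases before the start site. It also held 1 E-box from base 14 to base 9 before the start site and 1 GC box. The Cldn1 window held 2 GC boxes and the Cldn3 window 1, while the Cldn7 window held none of the 5 motifs. Cldn7 has another RefSeq start site 642 bases downstream, and its window, chr11:69965171-69965420, held 2 E-boxes, 1 match to the STAT letters and 1 GC box. Of the bases of that window, 221 are annotated as Cldn7 exon. No motif was common to the 4 windows printed, whereas with the other Cldn7 window the GC box was. GC boxes also lay in windows of Cldn10, Cldn19 and Ocln, which were not 2-fold higher. The Cldn10 window with GC boxes lies 67042 bases from the annotated gene start, and 218 of its bases are exon. Matches did not overlap one another, and a match describes letters only.

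Cldn4 (Entrez 12740) encodes a barrier claudin of the collecting duct that restricts the passage of cations. It had 398 reads in control and 3054 in the library labelled CKO. Scaled, the difference was 5.11-fold, or 2.35 on the log2 scale with an interval from 2.20 to 2.51. Its rank was 477 from the top among the 17469 genes, ahead of every other member. Cldn3 (Entrez 12739), a sealing claudin of distal segments, had 201 control reads and 949 in the library labelled CKO. The log2 ratio was 1.65, with an interval from 1.43 to 1.88. Both genes lie on chromosome 5 of GRCm38, Cldn4 from 134945119 to 134946934 and Cldn3 from 134986214 to 134987472, with 39.3 kb between them. They are transcribed on opposite strands, and no other annotated gene lies wholly in the gap. An antisense gene, Wbscr25, overlaps 40 bases of Cldn3. The strand setting of the authors' counting was not given in the sources used here, so reads of the overlap cannot be told apart.

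Cldn7 (Entrez 53624) encodes a claudin found along the distal nephron and collecting duct, also on the lateral membrane below the junction. It had 342 reads in control and 1419 in the library labelled CKO, and the log2 ratio was 1.47, with an interval from 1.30 to 1.64. The gene lies on chromosome 11 from 69964779 to 69967885, apart from the other members. Within each library, Cldn3 and Cldn7 kept nearly the same proportion to each other. The Cldn3 reads were 0.588 of the Cldn7 reads in control and 0.669 in the library labelled CKO. This gave an exact conditional odds ratio of 1.14, with an interval from 0.935 to 1.39 that includes 1.

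Cldn1 (Entrez 12737) is known in the kidney as a claudin of the parietal epithelial cells that line Bowman's capsule. It had 696 control reads and 3698 in the library labelled CKO, or 3.54-fold more after scaling, with a log2 ratio of 1.82 and an interval from 1.71 to 1.94. Its neighbour on chromosome 16 is Cldn16, a thick limb claudin, with 91.3 kb and no annotated gene between them. The log2 ratio of Cldn16 was 0.83, and its interval, from 0.63 to 1.05, lay below that of Cldn1. Of 5 genes listed as parietal epithelial markers, 5 of 5 had log2 ratios above 0 and 3 were at least 2-fold higher, with a median of 1.43. Pax8, expressed in parietal cells and tubules alike, was at 0.31, with 2653 and 4929 reads. Ncam1 was at 0.71, with 109 and 269 reads. Scin was at 1.43, Akap12 at 2.08 and Vcam1 at 3.82, and Vcam1 also stands on the list of tubular injury genes. Summed, the 5 markers had 136.6 RPM (reads when each library total is set to 1000000) in control and 518 in the library labelled CKO, and the most abundant was Pax8 in the former and Vcam1 in the latter. Their part in the Cldn1 result was not tested.

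Cldn8 (Entrez 54420), the partner of Cldn4 in the collecting duct, differed far less. It had 1319 reads in control and 2512 in the library labelled CKO, and the log2 ratio was 0.34, with an interval from 0.25 to 0.44. The proportion of the pair therefore turned over. Cldn4 reads were 0.302 of the Cldn8 reads in control and 1.22 in the library labelled CKO. Per kilobase of transcript these proportions were 0.391 and 1.58. The odds ratio was 4.03, with an interval from 3.55 to 4.57, and as a comparison within libraries it is free of the scaling between them.

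Principal cells, which carry both claudins of that pair, were represented by 8 markers with a median log2 ratio of 0.25, none past 2-fold upward and 1 past it downward. With equal totals 3 were past 2-fold upward and 1 downward, and in the unprocessed values 4 and 0. Aqp2, the water channel regulated by vasopressin and the marker with the most reads, had 4762 and 12359 reads and the highest ratio of the list at 0.79. Aqp3 was at -0.15 and Aqp4, the one lower by the threshold, at -1.45. The summed level of the list was 439.5 RPM in control and 719 in the library labelled CKO. The ratio of Cldn8 lay near the median of these markers, whereas those of Cldn4, Cldn3 and Cldn7 lay above each of the 8. The part of these cells in the values was not tested. Intercalated cells, the acid-base cells of the same ducts, had 7 markers with a median of 0.46 and none past 2-fold, against 2 past it upward with equal totals and 4 in the unprocessed values. They ran from -0.27 for Slc4a1 to 0.76 for Slc4a9, with Atp6v1g3 at 0.35, Atp6v0d2 at 0.72 and the most abundant in control, Slc26a4, at 0.20.

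The thick ascending limb uses Cldn16 and Cldn19 as a joint pore for calcium and magnesium. Cldn16 (Entrez 114141) had 259 reads in control and 693 in the library labelled CKO, 1.78-fold more after scaling. Cldn19 (Entrez 242653) had 1090 and 2194 reads, a log2 ratio of 0.42 with an interval from 0.32 to 0.53. Both intervals lay above 0, and neither gene reached 2-fold, although Cldn16 did with equal library totals, at 1.25, and in the unprocessed deposited values, at 1.34. The pair moved unequally, since the reads of Cldn16 were 0.238 of those of Cldn19 in control and 0.316 in the library labelled CKO. The odds ratio was 1.33 with an interval from 1.13 to 1.57. An antisense gene, Gm12927, overlaps 1562 bases of Cldn19. It was counted at 49 reads in control and 40 in the library labelled CKO, few beside Cldn19.

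Markers of the thick ascending limb had a lower median. Of 7 measured, 0 passed 2-fold in either direction, and their median log2 ratio was -0.14. Slc12a1, the sodium-potassium-chloride cotransporter, was at -0.14 with 36061 and 49207 reads. Umod, which encodes uromodulin and had the most reads, was at 0.47 with 90047 and 187056. The lowest value was -0.58, for Tmem207. With equal totals the median of the markers was 0.28, or -0.16 relative to all genes, where it was also -0.16 under the scaling used. In the unprocessed values 2 were past 2-fold upward and the median was 0.45. The summed level was 3689 RPM in control and 6019 in the library labelled CKO. These sums use equal library totals, and Umod gave 187056 of the 262359 reads in the library labelled CKO. Cldn14, a further claudin of this segment, was not analysed here.

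The most abundant members form pores known from the proximal tubule. Cldn2 (Entrez 12738) encodes the pore through which sodium, calcium and water pass between proximal tubule cells. It had 20271 reads in control and 21728 in the library labelled CKO, and a log2 ratio of -0.48 with an interval from -0.51 to -0.46. This value was -0.07 with equal library totals and turned positive, at 0.10, when the deposited values were used directly. Cldn10 (Entrez 58187) has isoforms from separate start sites, an anion-selective form known from the proximal tubule and a cation-selective form known from the thick ascending limb, and gene-level values do not separate them. It had 6916 and 6753 reads, for a ratio of -0.62 in log2, with an interval from -0.67 to -0.57. With equal totals it was at -0.20, and in the unprocessed values at -0.03. Those 2 settings moved the median of all genes by 0.42 and 0.54. Relative to the all-gene median, Cldn2 lay between -0.51 and -0.47 and Cldn10 between -0.64 and -0.60 under all 8 settings compared.

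Proximal tubule markers were mostly lower as well. Of 12 markers, 11 had log2 ratios below 0, 4 were past 2-fold downward and 0 past it upward, and the median was -0.56. With equal totals 9 were below 0, 2 were past 2-fold downward and the median was -0.14, and in the unprocessed values 6 were below 0, again 2 were past 2-fold downward and the median was 0.03. These medians were -0.58 and -0.54 relative to all genes. The endocytic receptors Lrp2 and Cubn were at -0.91 and -0.37. The phosphate transporter Slc34a1, with the most reads, was at -1.17. Slc7a13 was lowest at -2.95, and Slc5a12 was the single marker above 0, at 0.41. The other 2 past the threshold, named after their values were seen, were the organic anion transporter Slc22a6 at -1.63 and Miox at -1.05. The summed level was 14282 RPM in control and 10373 in the library labelled CKO. Cldn2 and Cldn10 thus lay near the median of this list, and its part in their values was not tested. The relation of Cldn2 to Cldn10 barely differed between libraries, with 2.93 and 3.22 reads of Cldn2 per read of Cldn10 and an odds ratio of 1.10, interval 1.06 to 1.14.

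Occludin (Ocln, Entrez 18260), which has a regulatory part in the junction and forms no pore of its own, had 1314 control reads and 1947 in the library labelled CKO. The log2 ratio was -0.02, with an interval from -0.12 to 0.08, so a difference was not detectable at this depth under this scaling. The value became 0.01 with equal upper quartiles, 0.40 with equal totals and 0.57 in the unprocessed values, each close to the all-gene median of the same setting. Relative to that median, Ocln lay between -0.04 and 0 under the 8 settings.

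**Figure D2:**
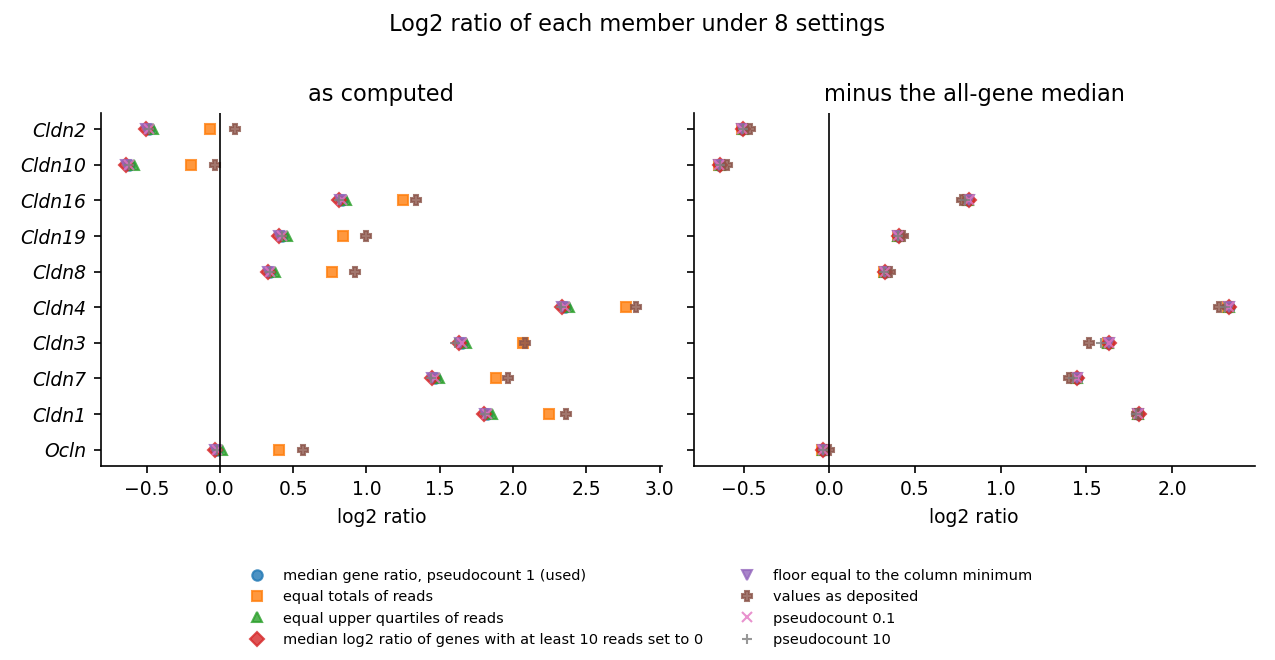
Log2 ratio of each member under 8 settings of scaling, floor and pseudocount, as computed (left) and after subtraction of the median of all genes in that setting (right). On the left, Cldn2 runs from -0.50 to 0.10 and Ocln from -0.04 to 0.57. On the right, each member keeps its place, with Cldn4 between 2.28 and 2.33.

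Levels of different genes were compared as RPKM, here reads per kilobase of the longest annotated transcript after each library total is set to 1000000, which makes the totals equal. In the control library, Cldn2 led with 171 and Cldn10 followed with 83.7. Cldn8 came next at 14.4, then Ocln at 8.35. The remaining members lay close together, from 6.73 for Cldn19 down to 4.11 for Cldn3. Within that group the counting intervals of Cldn19 and Cldn7, of Cldn7 and Cldn16, of Cldn16 and Cldn4, and of Cldn1 and Cldn3 overlapped, so their order is not resolved. In the library labelled CKO, Cldn2 at 163.8 and Cldn10 at 72.8 still led. Cldn4 moved from rank 8 to rank 3, at 38.6. Cldn8 and Cldn7 followed at 24.5 and 24.4 with overlapping intervals, then Cldn1 at 20.5 and Cldn3 at 17.3. Cldn16 at 13.6 and Cldn19 at 12.1 overlapped, and Ocln was last.

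**Figure D3:**
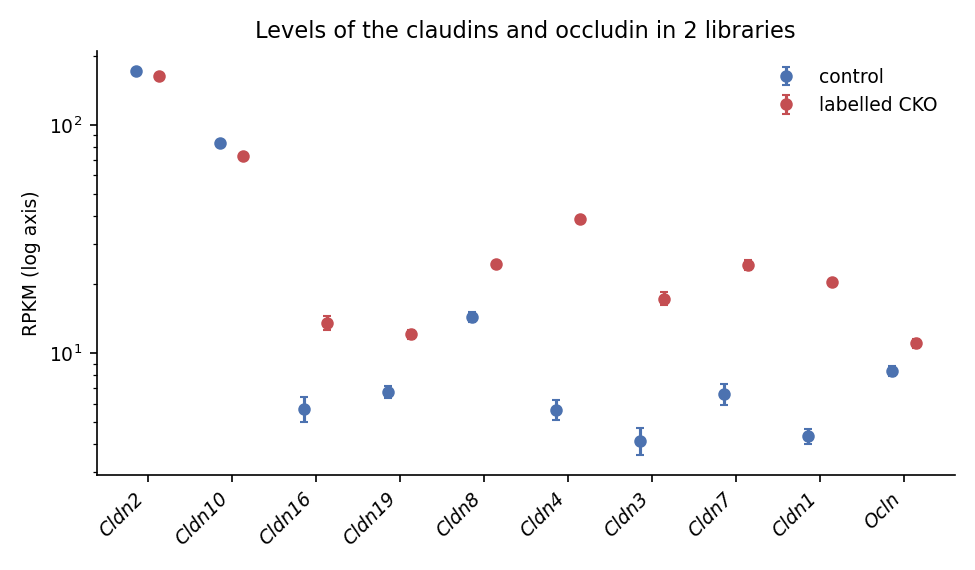
Level of each member in the control library (blue) and the library labelled CKO (red), in RPKM on a log axis, with 95% Poisson intervals for counting error. Cldn2 and Cldn10 lead in both libraries, and Cldn4 goes from 5.64 to 38.6.

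The make-up of the claudin pool shows the same data without any scaling between libraries. Within each library, the reads per kilobase of the 9 claudins were summed and each gene was given as a share of the sum. The pool leaves out the other claudins, among them Cldn12, at 22.4 RPKM in control and 29.0 in the library labelled CKO. A share also falls when other claudins of the pool rise. Cldn2 made up 56.7% of the pool in control and 42.3% in the library labelled CKO, while its own level was 171 and 163.8 RPKM. Cldn10 made up 27.6% and 18.8%. The share of Cldn4 was 1.86% in control and 9.96% in the library labelled CKO, that of Cldn7 2.18% and 6.29%, and that of Cldn1 1.43% and 5.28%. Cldn3 went from 1.36% to 4.46%. Together these 4 genes, grouped after their values were seen, held 6.83% of the control pool and 26.0% of the pool in the library labelled CKO. Counted in reads without regard to length, they were 1637 of 31492 control reads, or 5.20% with an exact binomial interval from 4.96% to 5.45%. In the library labelled CKO they were 9120 of 43000 reads, or 21.2% with an interval from 20.8% to 21.6%. The shares of Cldn8, 4.76% and 6.31%, of Cldn16, 1.88% and 3.50%, and of Cldn19, 2.22% and 3.12%, differed less.

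**Figure D4:**
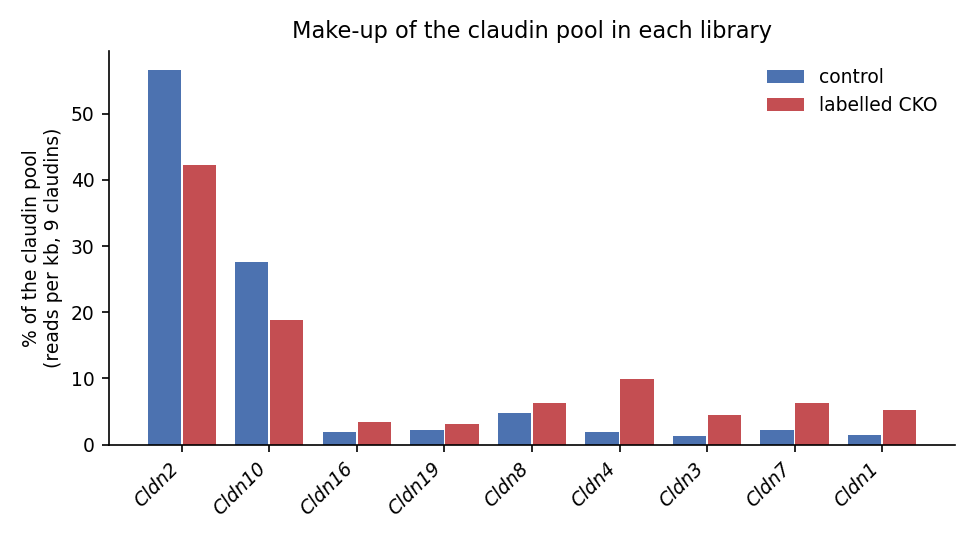
Share of each claudin in the summed reads per kilobase of 9 claudins, in percent, for the control library (blue) and the library labelled CKO (red). Cldn2 goes from 56.7% to 42.3%, and Cldn4 from 1.86% to 9.96%. A share also falls when other claudins of the pool rise.

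Sequence shared with other genes was looked for, since reads from it cannot be assigned. Each window of 100 bases, the average read length in the methods, along the longest transcript of each of the 10 members was compared with the transcripts of all other annotated genes on both strands, and 0 windows matched exactly. Besides the antisense genes named, the members' bodies overlapped 1 further gene, an rRNA fragment of 123 bases on the strand opposite to Cldn10.

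Of 21 other claudin genes listed, 8 had a row and 7 had at least 10 scaled reads in 1 library. Their median log2 ratio was 0.56, with 2 past 2-fold upward and 0 past it downward. With equal totals 3 were past 2-fold upward. In the unprocessed values 1 of 8 was, and the median relative to all genes was 0.22 in place of 0.54. Cldn6, a claudin of embryonic epithelia, was the highest, with 44 reads in control and 242 in the library labelled CKO and a log2 ratio of 1.85. Cldn11 had 7 and 27 reads, a ratio of 1.25 with a wide interval from 0.13 to 2.81. It passed the filter through the library labelled CKO only. Cldn23, at 10 and 30 reads, and Cldn9, at 11 and 25, had ratios of 0.93 and 0.56 with intervals that included 0. Cldn12 had the most reads, 3258 and 4748, and a ratio of -0.04 with an interval from -0.11 to 0.02. Cldn5, the claudin of endothelium, was at 0.30 with 143 and 265 reads, and Cldn15 at 0.18 with 436 and 739. Cldn22 had 2 reads in each library and gave no fold. The other 13 were not analysed here.

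The partners that anchor claudins to the cytoskeleton and build the junction lay nearer to the all-gene median. Of 36 measured tight junction partners, 1 was past 2-fold upward and 0 past it downward, or 22 above 0 and 14 below, with a median log2 ratio of 0.15. With equal totals 33 were above 0 and 3 below, 5 were past 2-fold upward, beside 21.9% of all genes, and the median was 0.57, which is 0.13 above that of all genes. In the unprocessed values 35 were above 0 and 1 below, 12 were past 2-fold upward, beside 17.9% of all genes, and the median was 0.73, or 0.16 above. Jam2, a junctional adhesion molecule, was the highest at 1.03, with 164 and 504 reads. Prkcz, an atypical protein kinase C of the polarity complex, was the lowest at -0.73, with 3849 and 3482 reads. Cgnl1, which encodes paracingulin and had the most reads, was at -0.16. The gene Pals1 was found under its older symbol Mpp5, and Bves was not analysed here.

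Adherens junction genes, which hold the same cells together below the tight junction, had 3 of 14 members past 2-fold upward, 0 past it downward and a median of 0.44. The upward count was 5 with equal totals and 7 in the unprocessed values, where 21.9% and 17.9% of all genes were past 2-fold upward. Cdh3, or P-cadherin, was the highest at 2.62, with 105 reads in control and 973 in the library labelled CKO. Cdh6 at 2.60 and Nectin4 at 1.48, named after their values were seen, were the others, and Cdh6 also stands on the list of tubular injury genes. Cdh16, the kidney-specific cadherin with the most reads, was the lowest at -0.32, with 41747 and 50147 reads. Cdh1, or E-cadherin, also named after its value was seen, lay near the median at 0.45, with 4155 and 8526 reads.

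Among 25 measured genes known to act on claudin expression or on the paracellular pathway, 5 were past 2-fold upward and 0 past it downward, with a median of 0.41. With equal totals 10 of 25 were past 2-fold upward and the median was 0.83, and in the unprocessed values 11 of 26 and 0.91. The upward shares of all genes were 21.9% and 17.9%. With the median log2 ratio set to 0 the list had 4 upward and 1 downward, and with the floor at the column minimum 5 and 1, as Hnf4a and Snai2 lie close to 2-fold. Twist1 was the highest at 1.79, on 12 and 66 reads. Elf3, an epithelial transcription factor, had 426 control reads and 2102 in the library labelled CKO, a ratio of 1.72. The other 3 were Klf5 at 1.52, Klf4 at 1.40 and Snai2 at 1.01, and all but Twist1 were named after their values were seen. Hnf4a, a factor of proximal tubule identity, had the most reads and the lowest ratio, with 38137 and 28756 reads and -0.99. Grhl1 was not analysed here.

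Genes of calcium and magnesium handling, the ions that pass the pore of Cldn16 and Cldn19, had a median close to that of all genes. Of 15 measured, 8 had ratios above 0 and 7 below, 1 was past 2-fold upward and 0 past it downward, and the median was 0.00, or 0.42 with equal totals. The split moved with the shift of all genes, to 9 above 0 and 6 below with equal totals, 12 and 3 in the unprocessed values, and 7 and 8 both with the median log2 ratio set to 0 and with the floor at the column minimum. Relative to all genes the median was -0.02 under the scaling used and with equal totals, and 0.02 in the unprocessed values. The upward count was 3 with equal totals and 4 in the unprocessed values. Trpv5, the apical calcium channel of the distal tubule, was the highest at 2.59, with 263 and 2381 reads. Pth1r, the parathyroid hormone receptor, was the lowest at -0.92, and Fxyd2, a subunit of the sodium pump and the most abundant, was at -0.78. The list shares 7 of its 16 genes with other lists. Connecting tubule markers, 4 of which are among them, had a median of -0.48, with Klk1 at -0.70, Calb1 at -0.58, S100g at -0.48 and Slc8a1 at 0.49 beside Trpv5. That median was -0.06 with equal totals and 0.11 in the unprocessed values. Distal convoluted tubule markers had a median of -0.08 over 6 genes. Slc12a3, with the most reads, was at 0.08, Trpm6 at 0.66, and Pvalb, the only one past 2-fold, at -1.17. With equal totals and in the unprocessed values 1 was past 2-fold upward and 0 downward, and the medians were 0.34 and 0.51. Thin limb markers were few, with 4 measured and a median of 0.29. Fst at 2.04 and Slc14a2 at 1.01 were past 2-fold upward, and Aqp1, shared with the proximal list, was at -0.47. The count was 1 with the median log2 ratio set to 0 and with the floor at the column minimum, since Slc14a2 lies close to 2-fold.

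Several lists of markers of other cell types were also higher in the library labelled CKO. With 1 library in each group, a pattern shared with Cldn4, Cldn3, Cldn7 and Cldn1 could not be assessed. Urothelium, the lining of the renal pelvis, expresses several claudins of tight epithelia. Of its 7 markers, 7 of 7 were above 0 and 6 were at least 2-fold higher, with a median log2 ratio of 2.24, but on few reads. In the unprocessed values the median was 1.31, or 0.75 relative to all genes in place of 2.22. They summed to 89 reads in control and 714 in the library labelled CKO, or 2.29 and 16.4 RPM. No marker was at 0, though 5 of the 7 had fewer than 10 control reads and passed the filter through the library labelled CKO only. Psca was the highest at 4.29, with 9 and 291 reads, and the most abundant in the library labelled CKO. Upk1a, a uroplakin, was the lowest at 0.89 with 25 and 71 reads, Upk1b was at 2.32 with 6 and 51, and Upk3b, the most abundant in control, at 1.78 with 30 and 158. In the library labelled CKO the 7 markers together had 714 reads and Cldn4 had 3054. Such totals of different genes set no bound on the Cldn4 reads that came from urothelium. The part of urothelium in the claudin results was not tested.

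Tubular injury genes were higher over a wider range than the claudins. Of 14 measured, 12 were past 2-fold upward and 0 past it downward, with a median of 3.08. Havcr1 was at 3.12 and Lcn2, the highest, at 6.45. Krt8 was the lowest at 0.45. Spp1, the most abundant, was at 4.16. The list summed to 764 RPM in control and 11808 in the library labelled CKO, where Spp1 alone gave 412220 of its 514695 reads. Macrophage markers had 7 of 8 at least 2-fold higher and a median of 2.64, with Adgre1 at 2.55, Cd68 at 2.17, Cd74, the most abundant, at 2.61, Lyz2 highest at 3.66 and Csf1r lowest at 0.51. They summed to 156 and 1050.3 RPM.

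T and B cell markers had 4 measured genes, each at least 2-fold higher, with a median of 1.85 on 44 control reads and 267 in the library labelled CKO. Of the 4, 2 had fewer than 10 control reads and passed the filter through the library labelled CKO only. The count and the median include them. In the unprocessed values the median was 1.33, or 0.76 relative to all genes in place of 1.83. Cd3g was at 2.22, Cd3e at 1.72, Cd4 at 1.70 and Cd8a, named after its value was seen, at 1.99. The 3 B cell markers were not analysed here. Fibroblast markers had 5 of 6 at least 2-fold higher and a median of 1.69, from 0.48 for Pdgfrb, the most abundant in control, to 2.65 for Col1a1, with Pdgfra at 1.04. The other 3, named after their values were seen, were Col3a1 at 2.56, Acta2 at 1.70 and Dcn at 1.69. They summed to 145.6 and 625 RPM. The part of injury, immune and stromal genes in the claudin values was not tested either.

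Glomerular and vascular markers lay near the all-gene median, and relative to it their medians stayed between -0.12 and 0.01 with equal totals and in the unprocessed values. Podocyte markers had a median of -0.02 over 6 genes with 0 past 2-fold, or 1 past it upward with equal totals and in the unprocessed values. The highest value was 0.99 for Cdkn1c, with Nphs1 at -0.20 and Podxl, the most abundant, at 0.08. Endothelial markers had a median of -0.10 over 8 genes with 0 past 2-fold, from -0.67 for Kdr to 0.14 for Emcn, with Pecam1 at -0.07 and Plvap, the most abundant, at -0.10.

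**Figure D5:**
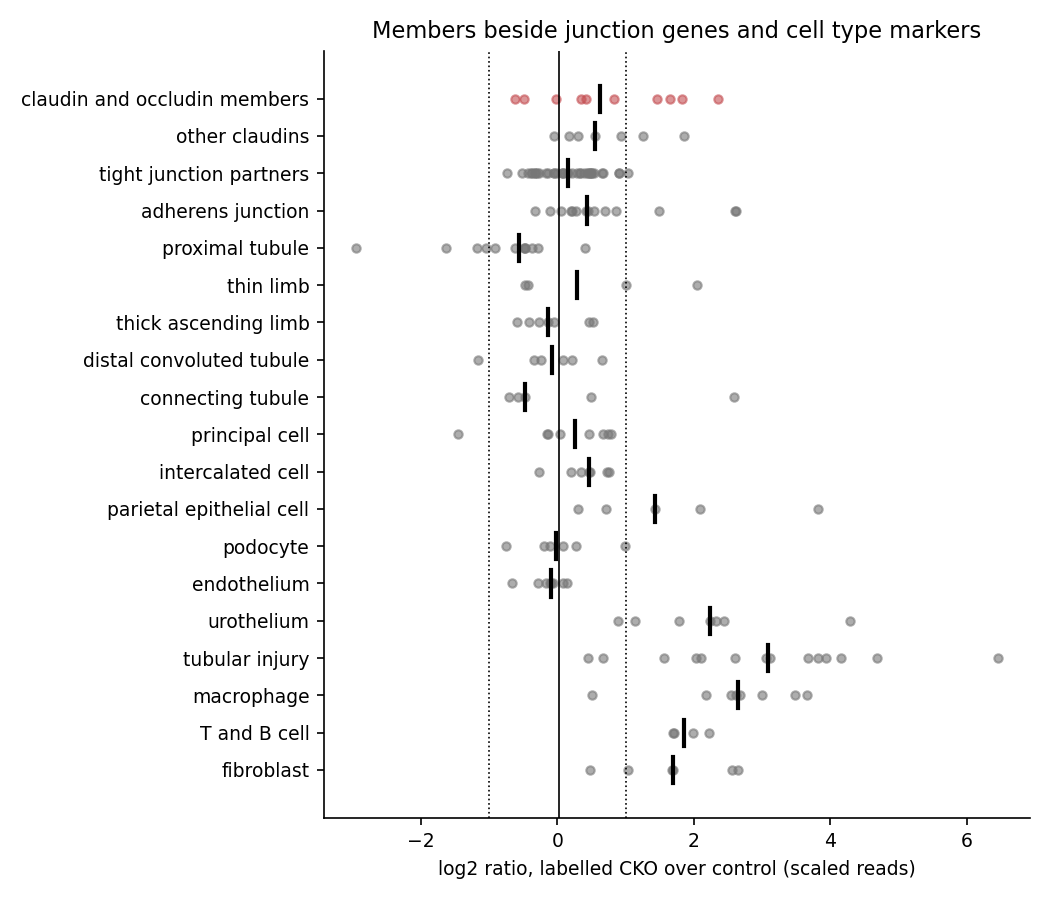
Log2 ratio of the library labelled CKO over control for the members (red), other junction genes and cell type markers (grey), 1 point per gene with at least 10 scaled reads in 1 library; black bars are list medians and dotted lines mark 2-fold. The median of the members is 0.63, beside 0.15 for tight junction partners, 2.24 for urothelium, 2.64 for macrophage and 3.08 for tubular injury genes. Of the 7 urothelium markers, 5 had fewer than 10 control reads and passed the filter through the library labelled CKO only.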

How the data were processed

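The authors prepared libraries with a TruSeq Stranded mRNA kit and sequenced them on a NovaSeq. Per the submitters' processing notes, reads were aligned with STAR 2.7.3a to mm10, counted with HTSeq and normalized with DESeq2, and Cufflinks 2.2.1 is also named. The deposited values are recorded as a score, since the authors call these whole numbers normalized counts. The analysis read them as reads plus a constant, and the totals, RPM, RPKM and intervals rest on that inference. Median depth per gene was 284 control reads and 513.5 CKO reads after subtraction of each column's floor, its minimum minus 1.

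The filter kept genes that reached 10 scaled reads in either library, the threshold was 2-fold and the pseudocount 1. A library with 3 or fewer reads gave no fold. No test between groups was made. Genes named are the 10 members, Zc3h12b, measured other claudins, the highest, the lowest and the most abundant control gene of each list, the first 2 genes of each marker list and lists of 5 or fewer. By that rule 1 marker of the thick ascending limb and 1 of podocytes would also be named and are not reported here. They stay in the counts, medians and sums of the fixed lists. Members and lists were chosen with earlier results of these data known. Lengths and positions came from GENCODE M21 and upstream sequences from RefSeq. Alternatives covered scaling, floor, pseudocount, threshold, filter and length.

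On simulated data, the steps called 200 of 200 changed genes in the right direction and 0 of 13747 unchanged ones, and 189 of 200 intervals held the true ratio. The simulated reads held counting error only, without spread between mice. The planted changes were larger than the threshold, and genes with few reads were not checked. This outcome follows from those settings, so it checks the arithmetic and gives no error rate for the calls made here. Python 3.11.15, numpy 2.4.6, pandas 2.3.3, scipy 1.17.1 and matplotlib 3.10.9 were used.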

Additional observations from a re-analysis of the deposited data

How the results depend on the processing

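No paired analysis was possible because 1 library stood for each group. The count of members at least 2-fold higher stayed within 1.5 times of 4 under the other scalings, floors and pseudocounts, was 1 at a threshold of 4-fold, and the count of lower members was 1 at 1.5-fold. All genes at least 2-fold higher numbered 3870 with equal totals and 3574 as deposited, and those lower 437 and 131. At 1.5-fold they numbered 3801 higher and 2423 lower, at 4-fold 749 and 166, and with at least 50 reads 617 were lower, fewer genes being tested. The members' median was 1.05 with equal totals and 1.17 as deposited. Cldn2 changed sign to 0.10 as deposited, and Ocln to 0.40 with equal totals and 0.57 as deposited. Zc3h12b, at -0.25, was at 0.16 and 0.42 in the same settings, which raise the all-gene median, and at -0.28 and -0.14 relative to it. Of 70 log2 ratios of members under alternatives, 49 stayed within their counting interval, 18 left it with the same sign and 3 left it with the other sign. In the claudin pool without division by length, Cldn2 held 64.4% in control and 50.5% in the library labelled CKO, Cldn10 22.0% and 15.7%, and Cldn1, Cldn3, Cldn4 and Cldn7 together 5.20% and 21.2%. As deposited, Cldn2 held 56.0% and 41.8%, and those 4 genes 7.41% of the control pool. The odds ratios of the 4 pairs stayed within their intervals with either floor. Apart from the thresholds, the filter, the division by length and the scaling factors themselves, the cause of these shifts was not tested. With 1 library per group, depth limits counting error only, and spread between mice is unknown.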
